A study of Mus musculus with 19 samples.

Results

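Retrotransposon RNA was compared between spermatogonia of mice lacking Pld6 and spermatogonia of control mice of the same line. The members were taken by their genotype labels alone and comprise 11 of the 19 libraries of the series. They are 5 homozygous knockouts (Pld6-/-, labelled Pld6 KO), 3 wild types (Pld6+/+) and 3 heterozygotes (Pld6+/-), the last 2 genotypes being pooled into 6 controls. The mice were untreated and were taken at postnatal day 7 (P7), and per the study's methods each library came from 1 mouse and the mutant allele had been backcrossed repeatedly to C57BL/6J. Cells carrying the surface protein EpCAM, a marker of undifferentiated spermatogonia, were collected from the testes by FACS, and their poly(A) RNA was sequenced. The knockout is constitutive, so every cell of the animal lacked the gene in fetal life as well as at P7. The other 8 libraries are Dnmt3l-/- knockouts (3) and their Dnmt3l+/+ (2) and Dnmt3l+/- (3) controls, and they enter only where the effects of the mutants are set against each other. For these Dnmt3l controls the labels were followed, although the study's methods give the wild-type and heterozygous numbers the other way round.

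PLD6, also called MITOPLD, is a protein of the mitochondrial outer membrane that is needed to make PIWI-interacting RNAs (piRNAs). In fetal male germ cells, piRNAs guide PIWI proteins to retrotransposon transcripts, which are cleaved, and to retrotransposon copies in the genome, which then receive DNA methylation. DNMT3L is a cofactor of the enzymes that lay down this de novo methylation. Retrotransposons are copied through RNA. LINE-1 (L1) elements carry an internal promoter in the 5′ region and encode ORF1 and ORF2, the latter a reverse transcriptase and endonuclease. LTR elements, or endogenous retroviruses, consist of an internal body with retroviral genes between a pair of long terminal repeats (LTRs) that hold the promoter. SINEs (B1 and B2 in the mouse) are short, encode no protein and depend on L1 proteins to move.

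The values are reads per 1000000 mapped reads (RPM) on the consensus sequence of each of 259 subfamilies, in which L1 5′ ends, ORF2 and 3′ ends, and LTR bodies and LTRs, are separate entries. RPM are not corrected for the length of the consensus, so levels are compared between libraries and not between subfamilies. Of the 259, 109 reached 1 RPM in at least 2 of the 11 libraries and were tested. The 150 that did not reach this never exceeded 2.11 RPM and summed to 17.3–23.5 RPM in the KO libraries and 10.8–20.5 RPM in controls. Fold changes below are differences in mean log2(RPM + 1), which understate the change of subfamilies near 0, and are followed by their standard error (SE, n = 5 and 6) and the Benjamini-Hochberg adjusted p of limma over the 109. Values of KO libraries are given in the order of replicates 1 to 5.

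Some libraries stood apart from the others. Pld6 het replicate 1 listed 159 of the 259 subfamilies at 0, against 69–90 in the other 10 libraries. It alone had zeros among the tested subfamilies, 27 of the 109. KO replicate 4 and KO replicate 5 each departed from the other KO libraries for particular elements, as described with those elements. Summed RPM over all subfamilies ranged from 2103 to 2730 in the 6 controls and from 7178 to 8426 in the 5 KO libraries, without overlap. The read depth is unknown. Transcripts of genes, Pld6 and cell type markers included, were not analysed here, so neither the genotype labels nor the sort was checked against them. In bulk RNA of this kind, more or fewer cells of a type and more or less RNA per cell cannot be told apart.

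Retrotransposon RNA was raised in Pld6 KO spermatogonia. The raised entries were L1 and LTR elements, as were all tested entries except 6 SINEs. At an adjusted p under 0.05, 39 of 109 (35.8%) were higher in KO. None (0%) was lower in limma, at an adjusted or an unadjusted p under 0.05. Median log2 fold change over all 109 was 0.38. In 36 of the 39 every KO library lay above every control library. These 36 were 33% of the 109, and no tested subfamily outside the 39 was so separated. The calls and this separation came from the same libraries. The 39 subfamilies together accounted for 99.0% of the net gain in summed RPM. They were called as higher in these same libraries, so a high share follows in part from their selection. L1 entries took 60.8% of that gain, of which L1_Mm_orf2 alone took 40.2%, IAP bodies and LTRs took 27.5%, MMERVK10 took 5.53% and MMERGLN took 4.34%. These are shares of mapped reads and not of molecules.

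By class, 8 of 18 tested LINE entries, 31 of 85 LTR entries and 0 of 6 SINE entries were raised. Median log2 fold changes were 0.61, 0.38 and -0.06 for these classes. Among LTR families, ERVK held 26 raised of 56 tested, ERV1 held 4 of 19, ERVL-MaLR held 1 of 6 and ERVL held 0 of 3. The share raised among all 109 tested was 35.8%. Outside IAP and MMERVK10, 4 of 29 tested ERVK entries were raised, with a median log2 fold change of 0.08. The share of all retrotransposon RPM taken by LINEs was 48.3%, 53.4%, 46.1%, 37.0% and 57.6% in the KO libraries, and 15.7%, 19.6% and 26.0% at the lowest, median and highest of the controls. The SINE share was 10.8%, 7.01%, 11.6%, 21.3% and 7.82% in KO and 28.4%, 41.3% and 51.5% at the lowest, median and highest of the controls. Both shares separated the groups completely (difference 27.9 and -27.8 percentage points, two-sided p = 0.00433 by exact permutation, the minimum for 462 splits, adjusted p = 0.00649 over 3 classes). The LTR share averaged 39.8% ± 3.1 (SD, n = 5) in KO and 39.8% ± 4.9 (SD, n = 6) in controls (exact permutation p = 0.987). The shares of a library sum to its whole, so these tests are not independent of the rise in L1 and LTR reads. Summed SINE RPM itself overlapped, at 563–1529 in KO against 616–1288 in controls.

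The count of raised and lowered subfamilies depended on how libraries were scaled. When each library was divided by the median ratio of the 33 subfamilies with at least 5 RPM in every library, the factors were 1.10–1.44 in KO and 0.731–0.970 in controls, and the median log2 fold change over all 109 moved from 0.38 to -0.01. On that scale 30 subfamilies were higher (27.5%), all of them among the 39, and 12 (11%) were lower. With het replicate 1 left out as well, 32 were higher and 20 lower. The 33 subfamilies that set the factors included raised ones, among them L1_Mm_orf2, L1Md_A_3end, IAPEz-int and MMERVK10C. The factors, and so the calls on that scale, were therefore not independent of the rise itself. The files do not say which of these scales reflects RNA per cell. Values below are on the deposited scale unless the scaled value is named.

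**Figure D1:**
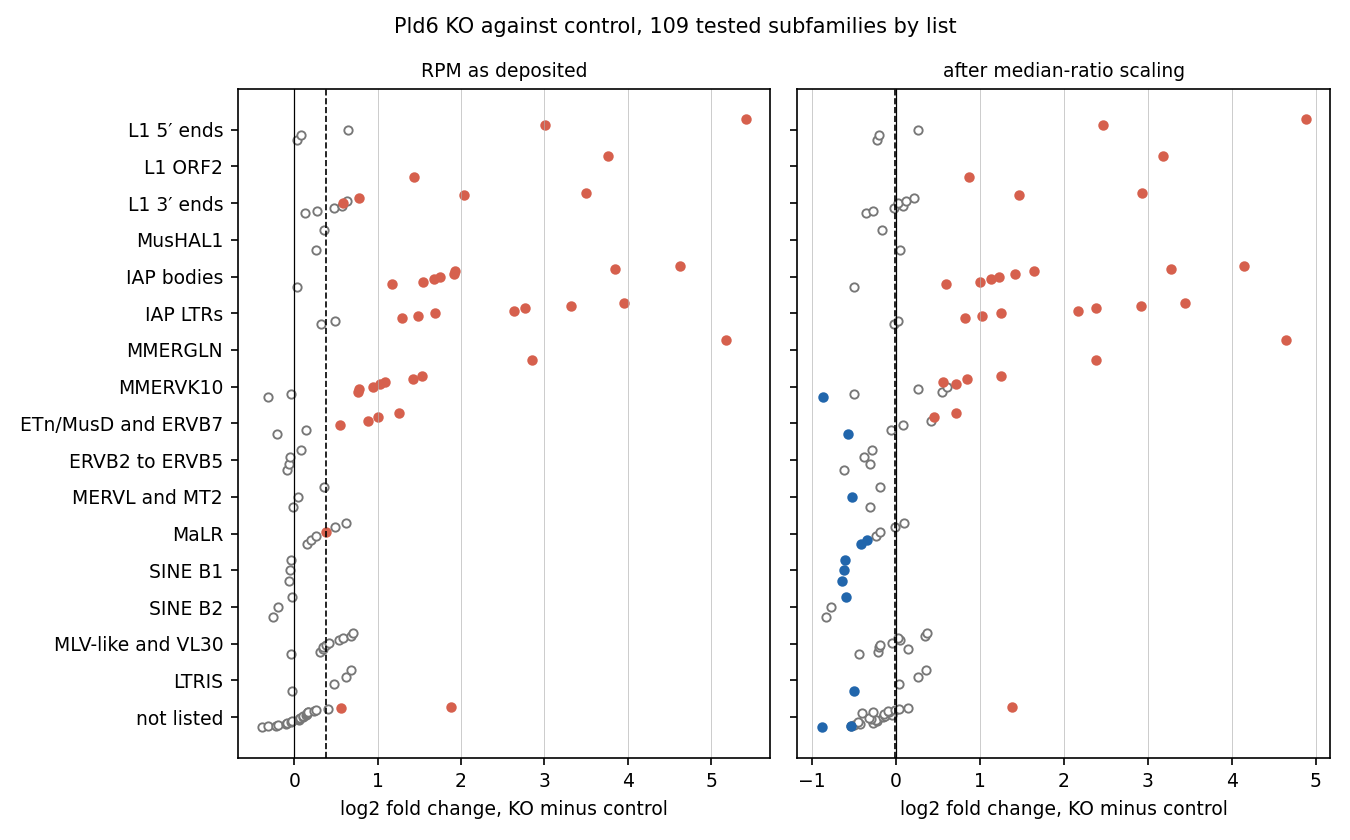
Log2 fold change of the 109 tested subfamilies (points), KO minus control, by list of elements, on RPM as deposited (left) and after median-ratio scaling (right). Red points were higher and blue points lower at an adjusted p under 0.05, open points were not called, and dashed lines mark the median of all 109, 0.38 and -0.01. L1 5′ ends, ORF2, IAP and MMERGLN reach the highest values on both scales, and B1 entries lie near 0 on the left and below it on the right.

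In L1, 8 of 16 tested 5′ ends, ORF2 and 3′ ends rose. L1Md_A_5end holds the promoter region and ORF1 of L1Md_A, one of the L1 subfamilies still able to move in the mouse. Its level was 484, 414, 362, 176 and 502 RPM in KO and 2.21, 9.85 and 12.6 RPM at the lowest, median and highest of the controls. All KO libraries were far above all controls, with KO replicate 4 the lowest of them and het replicate 1 the lowest control. Log2 fold change was 5.41 (SE 0.38, adjusted p = 4.2e-08), the highest of the 109 with all 11 libraries, and 5.13 without het replicate 1. L1Md_Gf_5end, the corresponding region of another active subfamily, was at 100.5, 92.4, 75.7, 45.0 and 103 RPM in KO and 3.89, 10.6 and 15.2 RPM at the lowest, median and highest control. Again KO replicate 4 was lowest and no KO library reached down to the controls (log2 fold change 3.01, SE 0.33, adjusted p = 2.7e-06). The other 3 tested L1 5′ ends, L1Md_F_5end, L1VL1_5end and L1VL2_5end, overlapped with controls, and their log2 fold changes were 0.64, 0.08 and 0.03.

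Both ORF2 entries rose. L1_Mm_orf2, the consensus ORF2 shared by young L1 subfamilies, was at 2280, 2713, 2546, 1573 and 2542 RPM in KO and 122, 178 and 229 RPM at the lowest, median and highest control (log2 fold change 3.76, SE 0.22, adjusted p = 4.2e-09). L1_Mus3_orf2, of an older group, was at 155, 178, 162, 120 and 194 RPM in KO and 41.5, 57.4 and 85.7 RPM at the lowest, median and highest control (log2 fold change 1.44, SE 0.19, adjusted p = 1.9e-05). For both, the groups did not overlap and KO replicate 4 was the lowest KO library.

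Among 9 tested L1 3′ ends, 4 rose. L1Md_A_3end was at 357, 423, 364, 372 and 385 RPM in KO, against 27.9, 33.0 and 36.0 RPM at the lowest, median and highest control. It was tight within both groups and gave the smallest adjusted p of the 109 (log2 fold change 3.50, SE 0.12, adjusted p = 1.8e-11). L1Md_T_3end, of a further active subfamily, was at 154, 209, 160, 147 and 167 RPM in KO and 34.4, 39.0 and 49.4 RPM at the lowest, median and highest control (log2 fold change 2.03, SE 0.15, adjusted p = 4.2e-08). The rise was smaller for L1Md_F2_3end (0.78, SE 0.15) and L1Md_F3_3end (0.58, SE 0.19), both members of the older L1Md_F group, and neither was called after scaling (0.21 and 0.02). L1_Mus1_3end to L1_Mus4_3end and Lx3_Mus_3end gave log2 fold changes of 0.13 to 0.63 and did not pass the test. MusHAL1, a non-autonomous relative with a single open reading frame, ranged over 9.38–14.2 RPM in KO against 3.54–11.4 RPM in controls (0.36, adjusted p = 0.28).

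IAPs (intracisternal A particles) are ERVK elements that include some of the youngest insertions of the mouse genome. Of 18 tested IAP entries, 15 rose, 8 of 9 bodies and 7 of 9 LTRs, and all 15 remained raised after scaling, without het replicate 1, and without KO replicates 4 and 5. Median log2 fold change was 1.75 for bodies and 1.69 for LTRs. IAPEz-int, the body of the main IAP group, was at 1409, 1380, 1523, 1272 and 448 RPM in KO, and 64.3, 76.5 and 90.7 RPM at the lowest, median and highest control. KO replicate 5 was far below the other KO libraries but still above every control (log2 fold change 3.85, SE 0.28, adjusted p = 4.2e-08). IAPA_MM was likewise lowest in KO replicate 5 among the KO libraries, at 105, 72.7, 109, 84.2 and 28.3 RPM in KO and 0.89, 2.04 and 3.62 RPM at the lowest, median and highest control (4.63, SE 0.34, adjusted p = 4.5e-08). How reads that match more than 1 consensus were assigned is not given in the sources used here, so similar entries such as these may have shared reads.

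IAPLTR1_Mm, an LTR found with IAPEz-int, was at 65.7, 66.7, 63.1, 87.4 and 19.2 RPM in KO and 2.22, 2.56 and 2.96 RPM at the lowest, median and highest control (3.95, SE 0.30, adjusted p = 6.6e-08). IAPLTR2b was at 27.1, 25.1, 19.1, 24.4 and 8.74 RPM in KO and 0, 1.29 and 1.95 RPM at the lowest, median and highest control, the 0 being in het replicate 1 (3.32, SE 0.32, adjusted p = 9.3e-07). KO replicate 5 was again the lowest KO library in both, and both groups were fully separated. The other raised LTRs were IAPLTR2a (2.77), IAPLTR2_Mm (2.64), IAPLTR1a_Mm (1.69), IAPEY_LTR (1.48) and IAP1-MM_LTR (1.29). IAPLTR2a2_Mm (0.49, adjusted p = 0.13) and IAPEY4_LTR (0.33, adjusted p = 0.48) did not pass.

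The IAPEY group is a branch of IAP with its own consensus entries, of which 6 were tested and 4 rose. IAPEy-int was at 32.2, 36.0, 37.3, 36.2 and 40.2 RPM in KO and 7.89, 12.3 and 16.9 RPM at the lowest, median and highest control (1.55, SE 0.18, adjusted p = 4.5e-06). IAPEY3-int was at 22.0, 25.6, 23.1, 23.4 and 29.3 RPM in KO and 3.59, 7.48 and 8.60 RPM at the lowest, median and highest control (1.75, SE 0.20, adjusted p = 3.4e-06). The KO libraries were close together and KO replicate 5, lowest for IAPEz-int, was highest for both. For IAPEY5_I, however, KO replicate 5 was the lowest KO library (11.4 RPM), and for IAPEY_LTR KO replicate 4 was the highest (10.4 RPM). IAPEY5_I (1.92) and IAPEY_LTR (1.48) also rose, whereas IAPEY4_I, with 8.62–42.4 RPM in KO against 7.22–28.4 RPM in controls, had a log2 fold change of 0.03 with a 95% interval of -0.95 to 1.01.

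**Figure D2:**
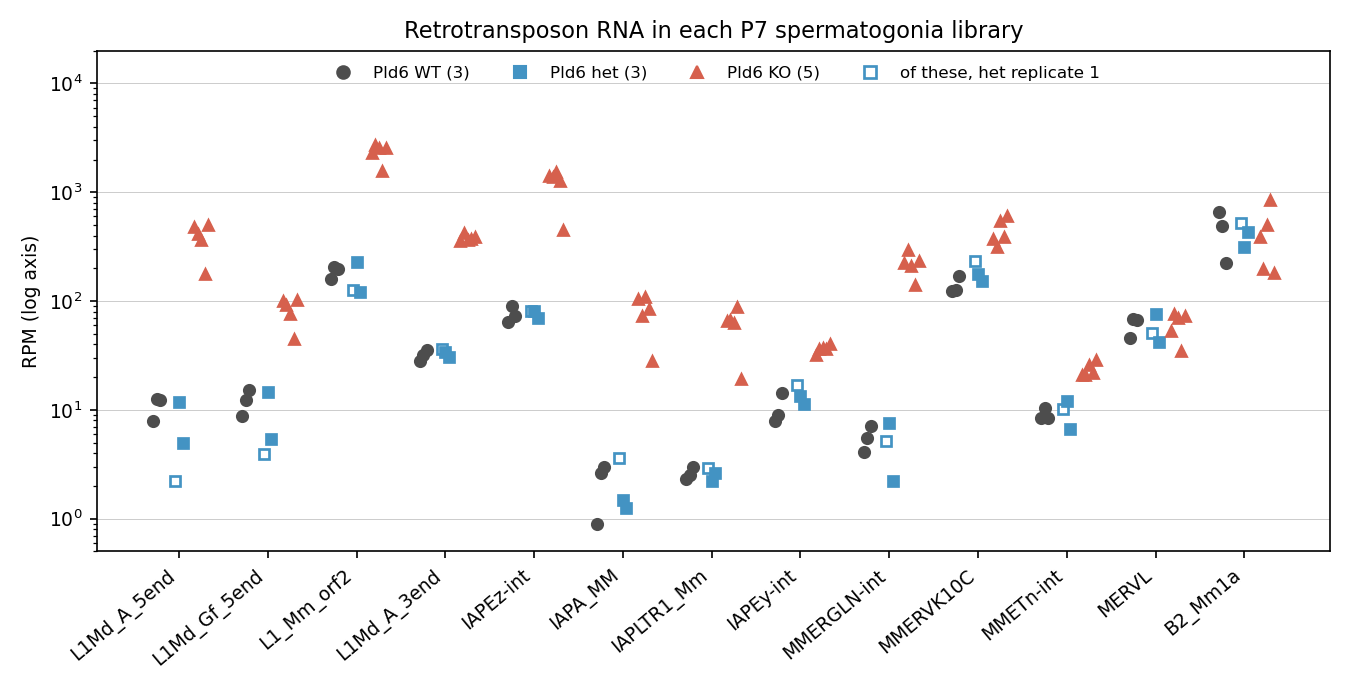
RPM (log axis) of 13 subfamilies in each of the 11 libraries, as wild type (circles), heterozygous (squares, het replicate 1 open) and KO (triangles). KO libraries lie above all controls for every subfamily drawn except MERVL and B2_Mm1a, and the lowest KO triangle is replicate 4 for L1Md_A_5end (176 RPM) and replicate 5 for IAPEz-int (448 RPM).

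MMERGLN is an ERV1 (gammaretrovirus-like) element, and its body and LTR both rose. MMERGLN-int was at 224, 297, 211, 141 and 233 RPM in KO and 2.24, 5.33 and 7.51 RPM at the lowest, median and highest control. Its log2 fold change of 5.18 (SE 0.25, adjusted p = 9.1e-10) was second to that of L1Md_A_5end with all 11 libraries, but first without het replicate 1 (5.18 against 5.13) and with wild types as the only controls (5.07 against 4.96). KO replicate 4 was again the lowest KO library. MMERGLN_LTR was at 16.5, 21.7, 18.1, 20.9 and 18.4 RPM in KO and 1.46, 1.63 and 2.75 RPM at the lowest, median and highest control (2.85, SE 0.16, adjusted p = 4.1e-09). Outside MMERGLN, 2 of 17 tested ERV1 entries rose, RLTR1B-int and its LTR RLTR1B. RLTR1B-int was at 12.3, 10.2, 15.9, 12.7 and 17.7 RPM in KO and 2.18, 3.12 and 3.65 RPM at the lowest, median and highest control (1.88, SE 0.18, adjusted p = 9.0e-07). RLTR1B gave 0.56 (SE 0.15, adjusted p = 0.0087), and 0.15 after scaling, where it was not called.

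MMERVK10C is an ERVK element whose LTRs carry RLTR10 names. Of 9 tested entries in this group 7 rose, with a group median of 0.95. MMERVK10C itself was at 376, 314, 548, 384 and 600.0 RPM in KO and 124, 162 and 235 RPM at the lowest, median and highest control. The groups did not overlap, the nearest approach being between KO replicate 2 and het replicate 1 (1.42, SE 0.21, adjusted p = 5.9e-05). RLTR10C, its LTR, was at 17.3, 14.2, 18.7, 22.0 and 21.8 RPM in KO and 7.19, 8.22 and 9.24 RPM at the lowest, median and highest control (1.09, SE 0.15, adjusted p = 1.7e-05). Of the other raised LTRs, RLTR10A (1.53) and RLTR10B2 (1.03) remained called after scaling, and RLTR10 (0.78), RLTR10B (0.95) and RLTR10D (0.76) did not. MMERVK10D3_I ranged over 18.1–23.4 RPM in KO against 19.6–33.2 RPM in controls (-0.32, adjusted p = 0.14), and was called lower after scaling (-0.87, adjusted p = 0.00052).

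ETn and MusD are related ERVK elements known for new insertions in laboratory mice, and ERVB7 entries were listed with them. Of 6 tested, 4 rose, with a median of 0.72. MMETn-int was at 20.9, 21.1, 25.9, 21.9 and 28.9 RPM in KO and 6.64, 9.38 and 12.1 RPM at the lowest, median and highest control (1.26, SE 0.16, adjusted p = 1.3e-05). ETnERV was at 28.8, 28.5, 31.6, 20.8 and 35.1 RPM in KO and 8.71, 14.7 and 17.2 RPM at the lowest, median and highest control (1.00, SE 0.18, adjusted p = 0.00040). Both separated the groups completely and were still called after scaling (0.72 and 0.45). The LTR RLTRETN_Mm overlapped with controls, at 4.15–7.36 RPM in KO and 2.64–4.99 RPM in controls, and was called by a narrow margin (0.55, SE 0.20, adjusted p = 0.044) that did not persist with several libraries left out. ERVB7_1-LTR_MM gave 0.89 (SE 0.17, adjusted p = 0.00051), and 0.42 (adjusted p = 0.073) after scaling.

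Several abundant groups held few called entries or none. B1 SINEs stayed within the control range in every KO library, B1_Mm with 66.5–104 RPM against 63.7–113 RPM in controls, and B2 SINEs spread beyond that range on both sides. B2_Mm1a was at 388, 198, 503, 857 and 183 RPM in KO and 226, 458 and 653 RPM at the lowest, median and highest control. KO replicate 4 exceeded every control while KO replicates 2 and 5 fell below every control (log2 fold change -0.20, 95% interval -1.04 to 0.64). B2_Mm1t gave -0.26 (95% interval -0.89 to 0.37), B2_Mm2 -0.02 (-0.41 to 0.36) and B1_Mm -0.05 (-0.45 to 0.35). After scaling, all 3 B1 entries (-0.60 to -0.64) and B2_Mm2 (-0.59) were called lower.

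MERVL, the ERVL element known for its expression in early embryos, was at 53.3, 76.1, 69.3, 34.7 and 72.9 RPM in KO and 42.4, 59.1 and 76.2 RPM at the lowest, median and highest control (0.04, 95% interval -0.44 to 0.53). Its LTR MT2_Mm gave 0.35 (95% interval -0.03 to 0.73). The MERVL value changed sign and passed the test after scaling (-0.52, adjusted p = 0.029). Of 6 MaLR entries, an old LTR group that lacks its own reverse transcriptase, MT-int was called at 0.38 (SE 0.12, adjusted p = 0.025), with 53.6–71.9 RPM in KO and 40.6–51.6 RPM in controls. Its value was close to the median of all tested subfamilies, and it changed sign after scaling (-0.19, adjusted p = 0.29). The log2 fold changes of the 6 MaLR entries were all above 0, at 0.15 to 0.62. Summed MaLR RPM was 156–181 in KO and 118.5–153 in controls, without overlap, while after scaling 2 of the 6 were called lower. Among 10 murine leukaemia virus-like and VL30 entries none was called, MMVL30-int at 64.7–133 RPM in KO and 57.4–74.9 RPM in controls (0.38, adjusted p = 0.12) and RLTR4_MM-int at 29.8–63.2 and 21.7–41.2 RPM (0.59, adjusted p = 0.064). None of 4 LTRIS entries and none of 4 ERVB2 to ERVB5 entries was called. ERVB4_1B-I_MM varied widely within both groups, at 12.4, 8.94, 32.7, 15.8 and 44.5 RPM in KO and 8.48, 17.4 and 66.1 RPM at the lowest, median and highest control, so its interval was -1.25 to 1.08.

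Plain ratios of RPM between entries of a library do not depend on how that library was scaled, whereas the tests used RPM + 1, which draws ratios of low entries together. The ratio of L1Md_A_5end to L1Md_A_3end was 1.36, 0.979, 0.993, 0.474 and 1.31 in KO, and 0.285, 0.395 and 0.347 in the wild types and 0.061, 0.344 and 0.163 in the heterozygotes. It was higher in every KO library than in any control, lowest in KO replicate 4 among the KO libraries and in het replicate 1 among the controls. On the scale of log2((RPM + 1)/(RPM + 1)) the difference was 1.91 (means -0.06 ± 0.61 SD, n = 5, and -1.97 ± 0.86 SD, n = 6, two-sided p = 0.00433 by exact permutation, again the minimum, adjusted p = 0.00693 over 8 ratios). L1Md_A_5end also rose more than ORF2 (difference 1.65, same p), with log2 ratios of -3.15 to -2.23 in KO and -5.31 to -3.88 in controls. L1Md_Gf_5end relative to L1Md_A_5end fell by 2.41 (same p), from a median of 0.20 in controls to -2.24 in KO, so the 5′ region of L1Md_A rose more than that of L1Md_Gf.

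Among ratios of LTR to body, only those of MMERGLN and ETn passed the test with RPM + 1, and both fell. The ratio of MMERGLN_LTR to MMERGLN-int was 0.074, 0.073, 0.086, 0.149 and 0.079 in KO and between 0.217 and 0.683 in controls, a fall of 2.32 on the log2 scale (exact permutation p = 0.00433, adjusted p = 0.00693). RLTRETN_Mm relative to MMETn-int fell by 0.71 on the log2 scale (same p), with log2 ratios of -2.39 to -1.50 in KO and -1.28 to -1.07 in controls. The result for IAPLTR1_Mm relative to IAPEz-int depended on the pseudocount. Plain RPM ratios were 0.0466, 0.0483, 0.0415, 0.0687 and 0.0429 in KO and 0.0277–0.0406 in controls, without overlap. With RPM + 1 the groups overlapped and the log2 difference was 0.10 (exact permutation p = 0.54), and with a pseudocount of 0.1 it was 0.48 (exact permutation, adjusted p = 0.0115). RLTR10C relative to MMERVK10C (-0.33, exact permutation p = 0.10) and MT2_Mm relative to MERVL (0.31, exact permutation p = 0.11) did not pass. In each LTR-to-body ratio except that of ETn, KO replicate 4 was the highest KO library.

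**Figure D3:**
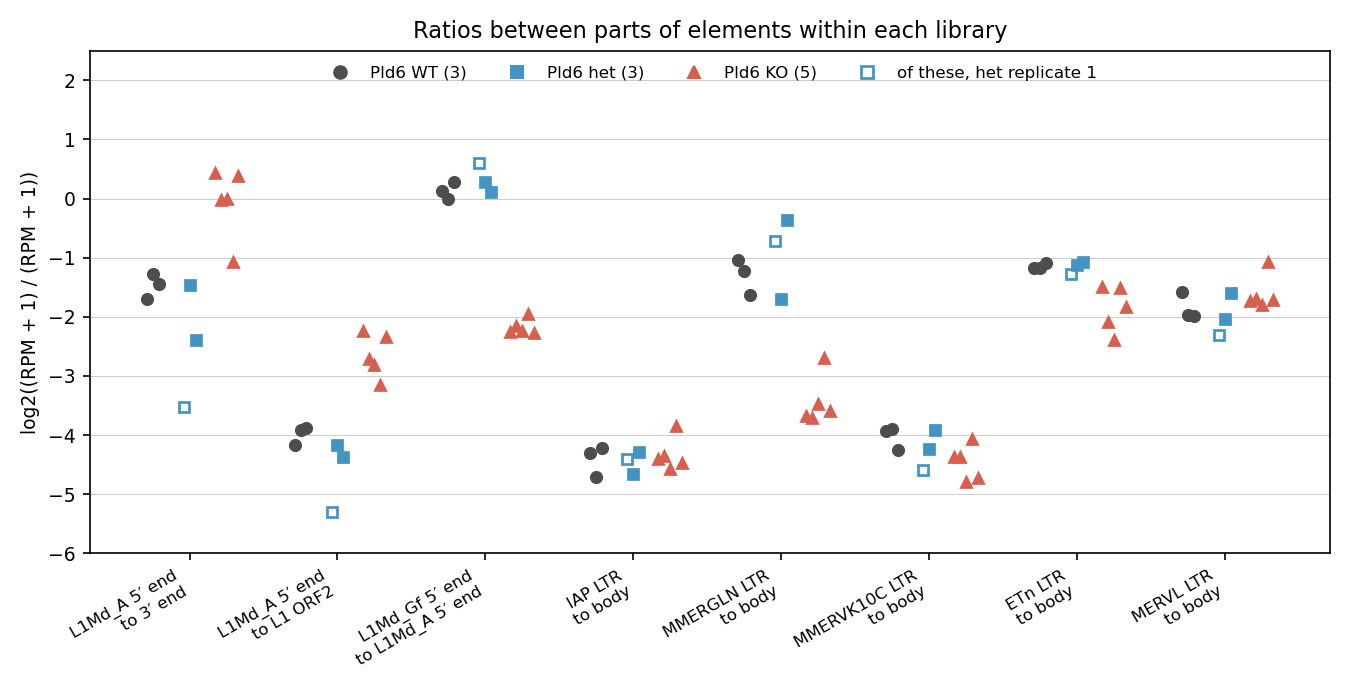
Log2 ratio of RPM + 1 between 2 entries in each of the 11 libraries, for 8 pairs, with symbols for wild type (circles), heterozygous (squares, het replicate 1 open) and KO (triangles). KO and control libraries do not overlap for the 3 L1 ratios, MMERGLN and ETn, and on this RPM + 1 scale they overlap for IAP, MMERVK10C and MERVL.

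The KO libraries differed among themselves by element. Across the 8 raised L1 entries, KO replicate 4 was the lowest KO library for 5, and KO replicate 5 was the highest for 5. Across the 7 raised IAP LTRs, KO replicate 4 was the highest for 6, and KO replicate 5 was the lowest for 4. KO replicate 5 was also the lowest for 5 of 8 raised IAP bodies, while it was the highest KO library for MMERVK10C, MMETn-int, ETnERV and RLTR1B-int. For 5 of the 7 raised MMERVK10 entries, KO replicate 2 was lowest. The labels give nothing by which these 5 animals differ. With KO replicates 4 and 5 both left out, 34 subfamilies were raised, all among the 39.

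**Figure D4:**
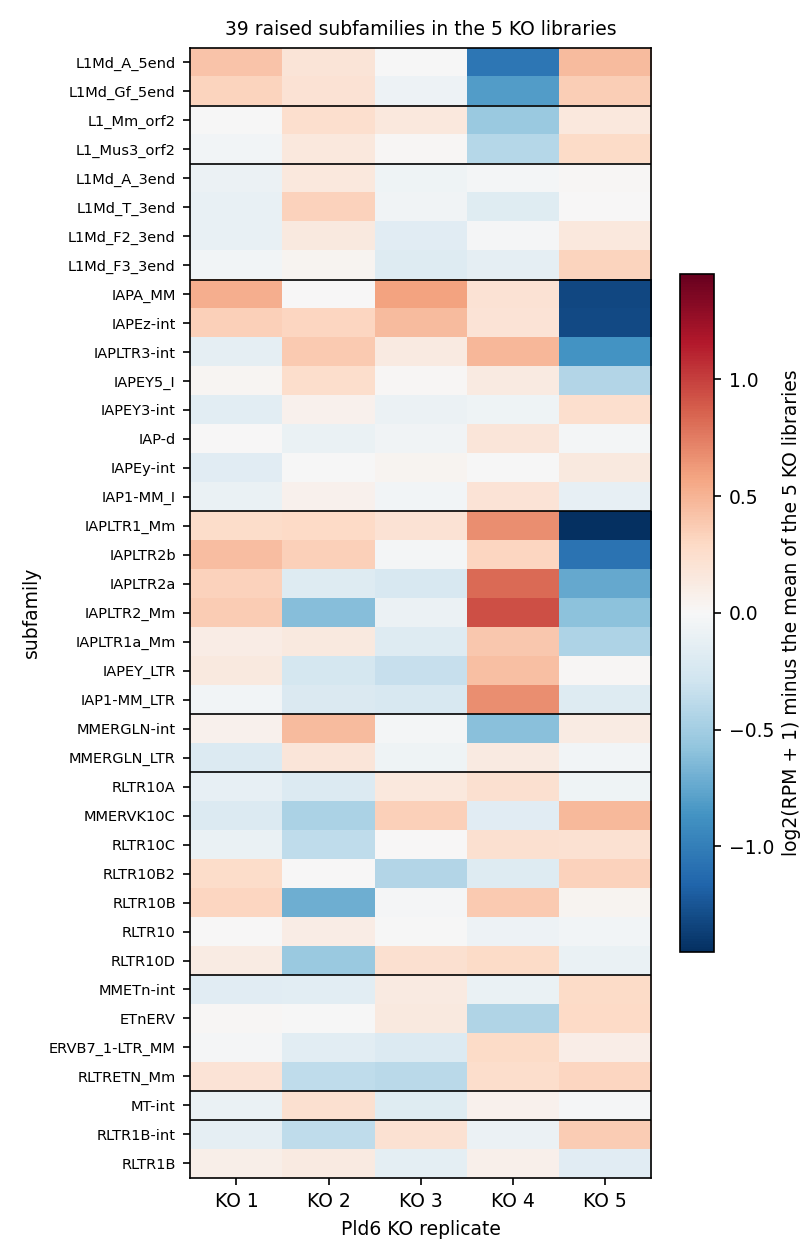
Deviation of each KO library (columns) from the mean of the 5 KO libraries, in log2(RPM + 1), for the 39 raised subfamilies (rows, grouped by list between black lines). Blue cells mark KO replicate 4 in the L1 5′ ends and ORF2 and KO replicate 5 in IAPA_MM, IAPEz-int and IAPLTR1_Mm, and the darkest red cells are KO replicate 4 in IAP LTRs.

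The repeat without het replicate 1 left the same 39 subfamilies raised, and 1 subfamily was called lower, RLTR13B4. This low ERVK entry was at 0.21, 0.40, 0.96, 0.50 and 0.86 RPM in KO and 0, 1.20 and 1.42 RPM at the lowest, median and highest control. The 0 was het replicate 1, and without it the lowest control was at 0.92 RPM and the log2 fold change moved from -0.31 (adjusted p = 0.35) to -0.50 (SE 0.15, adjusted p = 0.019). The median over all 109 moved from 0.38 to 0.24 when het replicate 1 was left out. Among the leading entries, L1Md_A_5end moved from 5.41 to 5.13, L1Md_Gf_5end from 3.01 to 2.80 and IAPLTR2b from 3.32 to 3.11, whereas IAPEz-int (3.85 and 3.87), MMERGLN-int (5.18 in both) and L1Md_A_3end (3.50 and 3.53) were nearly the same.

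Pooling the controls was examined by setting the 3 heterozygotes against the 3 wild types. No subfamily passed in limma (0%), and 1 of 109, RLTR20C2_MM, had an unadjusted p under 0.05, a count that became 19 with het replicate 2 left out. Median log2 difference, het minus wild type, was -0.22 over the 109 and -0.01 without het replicate 1. L1Md_A_5end was at 7.95, 12.6 and 12.3 RPM in wild types and 2.21, 11.7 and 4.97 RPM in heterozygotes, a difference of -0.91 on the log2 scale that did not pass. Against wild types alone and against heterozygotes alone, 36 subfamilies were raised in KO in each case.

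The effect of Pld6 KO was then set against that of Dnmt3l KO, tested as the difference of the log2 fold changes over all 19 libraries, with each mutant measured against its own controls. The log2 fold change was higher in Pld6 KO for 8 of the 109 (7.34%) and higher in Dnmt3l KO for 13 (11.9%). The 8 comprised 4 L1 entries, 3 IAPEY entries and B2_Mm2, and the 13 comprised 8 IAP entries, 3 MMERVK10 entries, RLTR1B and RLTR13A3. After scaling the counts were 14 and 8, and with Dnmt3l KO replicate 2 left out the first was 5.

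For L1, log2 fold changes in Pld6 KO and Dnmt3l KO were 5.41 and 3.76 for L1Md_A_5end (difference 1.66, SE 0.50, adjusted p = 0.021). They were 3.76 and 2.13 for L1_Mm_orf2 (1.63, SE 0.29, adjusted p = 0.00018) and 3.50 and 1.94 for L1Md_A_3end. The L1Md_A_5end difference was 1.21 (adjusted p = 0.11) with mice labelled wild type as the only controls and 1.51 (adjusted p = 0.072) without Dnmt3l KO replicate 2. For the IAPEY entries the values were 1.55 and -0.37 for IAPEy-int (difference 1.92, SE 0.27, adjusted p = 4.5e-05), 1.48 and -0.04 for IAPEY_LTR, and 1.75 and 0.58 for IAPEY3-int. In the other direction they were 3.85 and 6.23 for IAPEz-int (difference -2.38, SE 0.36), 4.63 and 7.12 for IAPA_MM, and 1.42 and 2.89 for MMERVK10C. IAP entries thus stood on both sides, with IAPEY5_I (1.92 and 2.33) past the test on neither. For MMERGLN-int the values were 5.18 and 5.83, and the interval of their difference was -1.45 to 0.14. B2_Mm2 was at -0.02 in Pld6 KO and fell by 0.89 in Dnmt3l KO (difference 0.87, SE 0.25, adjusted p = 0.016, and 0.69 with adjusted p = 0.21 against wild types only). The Dnmt3l controls began higher, at 189–277 RPM against 83.3–120 RPM in Pld6 controls. The KO libraries overlapped, at 116–141 RPM in Dnmt3l KO and 74.9–142 RPM in Pld6 KO. The other SINE entries had log2 fold changes of -0.52 to -0.94 in Dnmt3l KO.

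**Figure D5:**
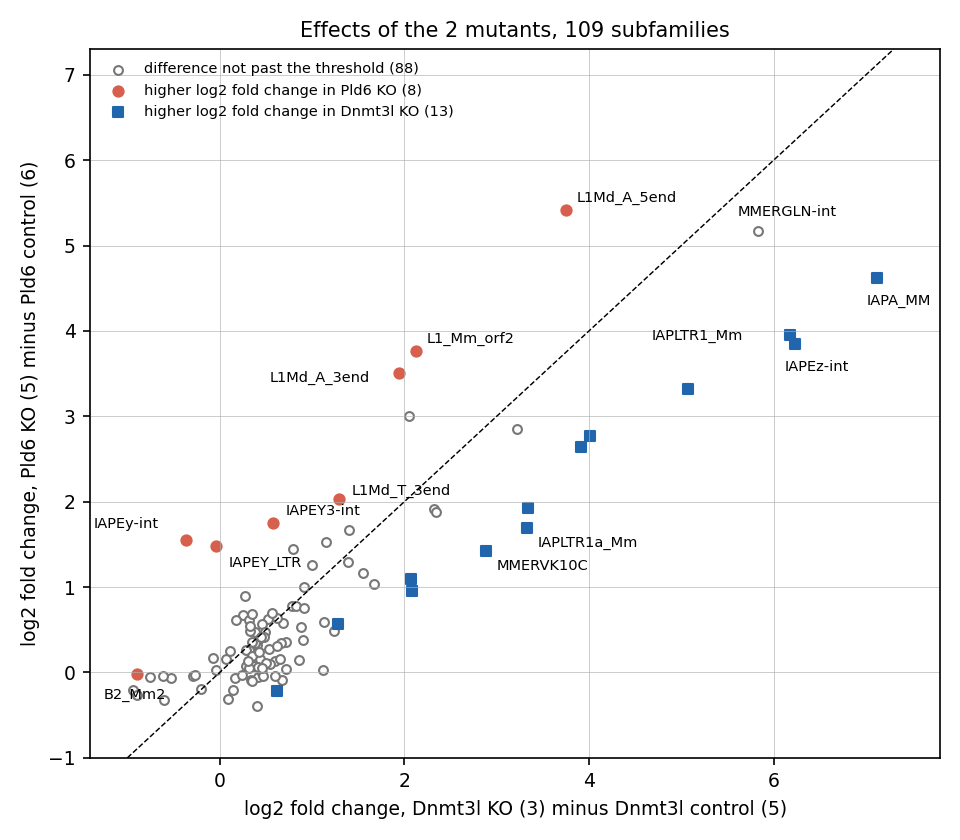
Log2 fold change of 109 subfamilies in Dnmt3l KO (x axis, 3 against 5 libraries) and Pld6 KO (y axis, 5 against 6 libraries), each against its own controls, with equal effects on the dashed line. Red circles (8) and blue squares (13) mark subfamilies whose difference passed an adjusted p of 0.05. L1Md_A entries, IAPEy-int, IAPEY_LTR and IAPEY3-int lie above the line, IAPEz-int, IAPA_MM and MMERVK10C below it, and MMERGLN-int close to it.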

How the data were processed

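Deposited tables from 11 Pld6 libraries (50-bp single-end, poly(A), directional) and 8 Dnmt3l libraries were used, each with 1 RPM value for each of 259 subfamilies. Per the study's methods, the authors used hisat2 to map reads onto consensus sequences of mouse retrotransposons, and the deposited unit is RPM, reads per 1000000 mapped reads. The settings, the version and which reads that total counts are not given in the sources used here. The 259 values of a library summed to at most 14603 RPM, so the total was not confined to reads on these 259 entries. The submitters' processing notes also name Trim Galore and mm10. Low RPM values did not fully resolve into whole reads. The share within 0.005 RPM of the best step, up to 10 steps, was 25.9% in het replicate 1 and 69.8% to 95.1% in the other Pld6 libraries. The depth is therefore unknown, no count model was used and no counting interval is given.

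Subfamilies with at least 1 RPM in at least 2 of the 11 libraries were tested with limma 3.58.1 in R 4.3.3 (lmFit, eBayes with trend, two-sided) on log2(RPM + 1), with Benjamini-Hochberg adjustment over all 109 and a threshold of 0.05. The same model with 3 genotypes gave het against wild type, and with 4 groups over 19 libraries the difference between the mutants. Ratios and class shares were tested by exact permutation over 462 splits. Members, lists and tests were chosen with earlier results of these data known. The rule for named subfamilies took the 10 largest increases and 5 largest decreases with separated groups, the most abundant entry of each list, both members of each ratio, the 5 most abundant in controls, the 3 largest differences from Dnmt3l in each direction, and up to 5 whose call changed without het replicate 1. Further subfamilies were named after their values were seen. Alternatives were another pseudocount or filter, median-ratio scaling, wild-type or heterozygous controls only, and libraries left out. Replicates are separate mice. Correlations between libraries sharing a replicate number ranged from -0.31 to 0.47, so the numbers were not taken as pairs.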

Additional observations from a re-analysis of the deposited data

Results flagged for a closer look

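In the comparison of mutants, 11 of the 28 named subfamilies had a difference past the test between the effects of Pld6 KO and Dnmt3l KO. Over all 109 tested, 8 (7.34%) were higher in Pld6 KO and 13 (11.9%) in Dnmt3l KO. The naming rule itself took the 3 largest such differences in each direction, so the 11 were partly selected on this result. In log2 units, as Pld6 minus Dnmt3l, the difference was positive for IAPEy-int (1.92), L1Md_A_5end (1.66), L1_Mm_orf2 (1.63), L1Md_A_3end (1.56) and B2_Mm2 (0.87). It was negative for IAPA_MM (-2.50), IAPEz-int (-2.38), IAPLTR1_Mm (-2.22), IAPLTR2b (-1.75), MMERVK10C (-1.47) and RLTR10C (-0.98).

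Single libraries stood apart in 11 of 110 sets of values examined, where chance alone flags about 1 set in 20. The figure given is the gap from the outlying library to its nearest neighbour as a share of the group's range, with critical values of 0.710 for 5 and 0.625 for 6 libraries. It was taken on the log2 scale of RPM + 1, and plain RPM would give other figures. KO replicate 5 was low for IAPLTR1_Mm (0.783), IAPEz-int (0.853) and summed IAP bodies (0.838). KO replicate 4 was high for the ratio of LTR to body in MMERGLN (0.762) and in MERVL (0.852). Het replicate 1 was low among controls for MusHAL1 (0.737), summed MusHAL1 (0.741), RLTR13B4 (0.738), summed LTRIS (0.643) and the ratio of L1Md_A_5end to L1_Mm_orf2 (0.662), and high for MMERGLN_LTR (0.701).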

How the results depend on the processing

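Of the 39 raised subfamilies, 35 were called in all 11 fits that left out 1 library, and the count ranged from 35 to 41 over these fits. The others, MT-int, RLTRETN_Mm, L1Md_F3_3end and RLTR10B, each lost the call in some. The count of lowered subfamilies was 0 in the main comparison, 12 after median-ratio scaling, 1 without het replicate 1 and 20 with both changes, and 0 to 1 over fits with 1 library left out. The cause was not tested. Scaling turned 33 of the 109 log2 fold changes from above to below 0. Named entries that did so and were called on either scale were MERVL (-0.52), MT-int (-0.19) and, with het replicate 1 also left out, MusHAL1 (-0.28) and MT-int (-0.13).

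Scaling moved the KO minus control difference in mean log2 summed RPM to 2.86 for L1 ORF2, 1.24 for L1 3′ ends, -0.14 for MusHAL1, 2.47 for IAP bodies, 2.23 for IAP LTRs, 4.54 for MMERGLN, 0.68 for MMERVK10, 0.44 for ETn/MusD and ERVB7, -0.46 for MERVL and MT2, -0.29 for MaLR, -0.63 for B1, -0.13 for murine leukaemia virus-like and VL30 entries, -0.078 for LTRIS and -0.32 for subfamilies in no list. Subfamilies with a higher log2 fold change in Pld6 KO than in Dnmt3l KO numbered 14 after scaling and 5 to 10 with 1 library left out (5 without Dnmt3l KO replicate 2). Those with a higher log2 fold change in Dnmt3l KO numbered 8 and 9 to 16.

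With wild-type controls only, 5 libraries against 3 could not give a two-sided exact permutation p under 0.0357, and no ratio or share passed after adjustment. The differences were then 1.42, 1.34, -2.31, -2.13 and -0.72 for the ratios of L1Md_A 5′ to 3′ end, L1Md_A 5′ end to ORF2, L1Md_Gf to L1Md_A 5′ end, MMERGLN and ETn, and 27.0 and -28.6 percentage points for LINE and SINE shares. The only ratios newly called were IAP with a pseudocount of 0.1 (0.48) and MMERVK10C without het replicate 1 and KO replicate 4 (-0.52). That last setting, scaling together with leaving out het replicate 1, leaving out KO replicates 4 and 5 together, and the block over 19 libraries were chosen after seeing the data.

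A fit with the replicate number as a block called 34 raised subfamilies, all among the 39, and 8 and 12 differences from Dnmt3l. The labels do not say that equal numbers were paired. Unknown depth limits what can be said of entries near 1 RPM.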
